A study of Mus musculus with 4 samples.

Results

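The barcodes described here are those rich in globin RNA, the transcripts that fill maturing red blood cells, in newborn mouse kidney. A barcode marks the droplet that RNA was captured in, and a UMI (unique molecular identifier) stands for 1 captured RNA molecule. Barcodes were taken from both single-cell matrices where 1000 or more UMIs and 500 or more genes were detected and mitochondrial genes gave less than 15% of UMIs. At least 20% of the UMIs had to come from genes named Hba- or Hbb-, with at least 1 UMI of Alas2. This chose 645 barcodes: 191 of 21188 kept barcodes in the control library and 454 of 15645 in the floxed library. Since globins and Alas2 chose them, their own levels are given as a description.

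Each library came from dissociated whole kidneys of newborn mice, after removal of debris and dead cells. The control genotype was Six2Cre and the other Six2CreTet2/3f/f, called floxed here, which carries floxed alleles of Tet2 and Tet3 as well as the Six2Cre of the control. Tet2 and Tet3 encode enzymes that oxidise methylated DNA. Six2 marks nephron progenitors, so the recombinase acts in that lineage, from which red cells do not descend. The number of animals in a library is not given. Each genotype had 1 library, so no difference between them has a replicate check, and no p-value is given. Every interval given is a 95% interval that covers counting error only. The libraries held 197745868 and 115427704 UMIs in 25736 and 22543 barcodes, more barcodes than the 10000 cells that the labels say were loaded. The matrices shared 174 barcode sequences, and none was chosen in both. The bisulfite sequencing samples of the series were not analysed here.

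Red cells arise through nucleated precursors that make haemoglobin, expel the nucleus and circulate as reticulocytes, which still carry RNA, before they become erythrocytes. Haemoglobin joins alpha chains from the Hba genes with beta chains from the Hbb genes, and its heme is built by a pathway that begins with Alas2 in this lineage. Early precursors carry the transcription factors Gata1 and Klf1, while late stages carry genes of the red-cell membrane, of organelle clearance and of protection from oxidation.

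The promoters of 4 genes, those that chose the barcodes and those by which they varied, follow, from RefSeq on GRCm38.p6, 200 bases upstream of each start, on the gene's own strand. Capitals mark GATAA and CACCC on either strand (reverse complements TTATC and GGGTG, overlaps counted), the core letters of sites that erythroid GATA and Krüppel-like factors are known to bind. Hbb-bs and Hbb-bt are the adult beta chains, whose balance varied among the barcodes. Hba-a1 is an adult alpha chain, and Alas2 makes the rate-limiting enzyme of red-cell heme synthesis. The windows are Hbb-bs at chr7:103827929-103828128 and Hbb-bt at chr7:103813924-103814123, both on the minus strand, Hba-a1 at chr11:32283472-32283671 and Alas2 at chrX:150547217-150547416, both on the plus strand.
Hbb-bs promoter: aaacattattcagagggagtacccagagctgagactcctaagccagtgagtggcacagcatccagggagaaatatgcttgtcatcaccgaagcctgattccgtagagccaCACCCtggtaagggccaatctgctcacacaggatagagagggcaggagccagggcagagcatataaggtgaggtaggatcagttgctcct
Hbb-bt promoter: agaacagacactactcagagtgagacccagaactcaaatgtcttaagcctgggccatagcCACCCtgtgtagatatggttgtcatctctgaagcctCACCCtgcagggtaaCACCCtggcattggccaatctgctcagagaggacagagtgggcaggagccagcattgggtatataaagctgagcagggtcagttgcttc
Hba-a1 promoter: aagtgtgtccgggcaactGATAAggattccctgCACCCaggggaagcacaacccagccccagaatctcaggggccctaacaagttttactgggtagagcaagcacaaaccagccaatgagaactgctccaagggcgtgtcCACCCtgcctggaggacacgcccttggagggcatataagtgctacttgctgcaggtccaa
Alas2 promoter: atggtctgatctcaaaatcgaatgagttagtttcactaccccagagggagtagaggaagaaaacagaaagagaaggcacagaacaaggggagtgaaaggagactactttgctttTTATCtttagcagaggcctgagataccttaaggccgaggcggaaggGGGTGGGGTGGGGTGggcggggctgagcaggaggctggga
The Hbb-bs window held 1 CACCC match and the Hbb-bt window 3, neither with GATAA. The Hba-a1 window held 2 CACCC and 1 GATAA match, and the Alas2 window 3 adjoining CACCC matches and 1 GATAA match. Of 32851 windows of this length in the table, 18.1% held GATAA and 45.5% held CACCC, so such matches are common.

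Globin-rich barcodes made up 0.901% (0.779 to 1.04) of kept control barcodes and 2.90% (2.64 to 3.18) of kept floxed barcodes. The share was 3.22 times as high in the floxed library (2.71 to 3.83). At the globin threshold, 13 control and 23 floxed barcodes lay at 20 to 22%, while 11 and 23 Alas2-positive barcodes at 18 to 20% were left out. A further 41 and 105 kept barcodes passed the globin threshold without an Alas2 UMI. More barcodes were lost to the minimum of 500 genes. In the control library 281 barcodes met both globin and Alas2 conditions but failed the cell filter, 274 of them with under 500 genes, and in the floxed library 1329 failed, 1283 of them with under 500 genes. Per kept barcode these failed barcodes were 6.41 times as frequent in the floxed library (5.63 to 7.31). The cause of these differences in number was not tested.

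Barcodes with a higher globin share had fewer genes detected. Median genes detected were 1865 in the control and 1715 in the floxed library at 20 to 40% globin, and 556 and 570 at 60 to 80%. Median UMIs over all chosen barcodes were 4487 and 3869.5, and median non-globin UMIs were 1732 and 1614. The highest globin share was 85.6% in the control library, where 11 barcodes had at least 80%, and 79.0% in the floxed library, where none had.

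**Figure D1:**
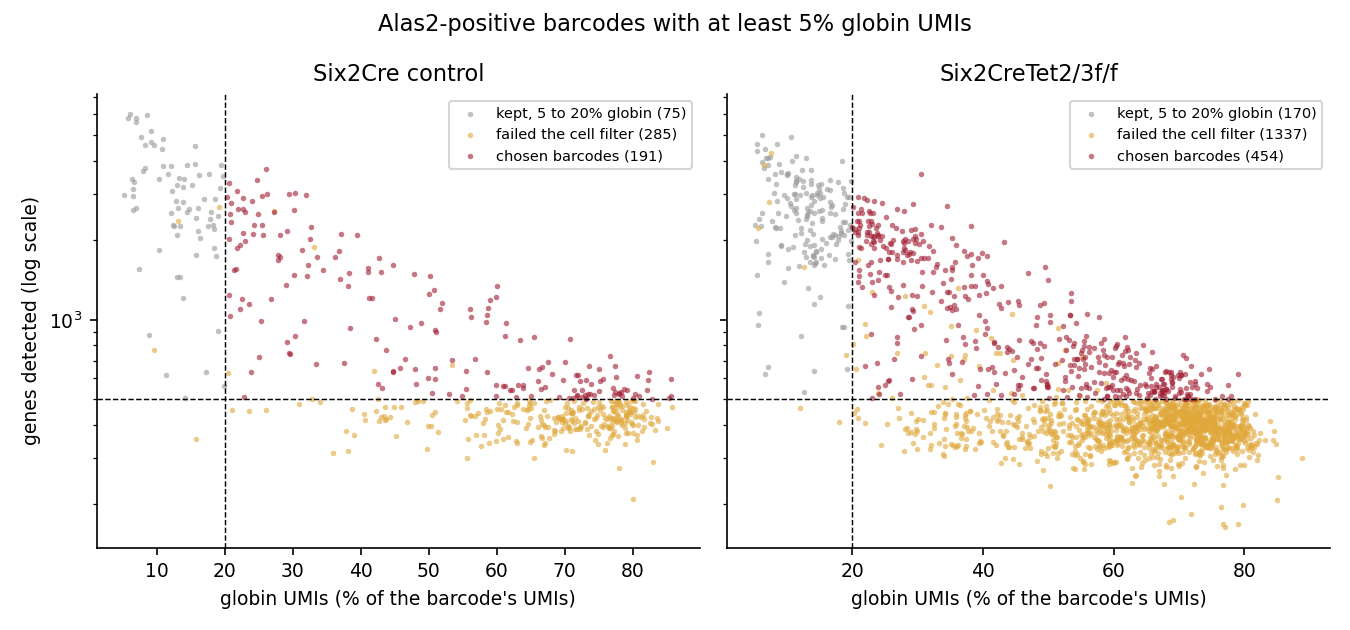
Genes detected (log scale) against globin share for each Alas2-positive barcode with at least 5% globin UMIs, 1 panel per library; dashed lines mark 500 genes and 20% globin. Chosen barcodes (191 and 454, dark red) narrow towards 500 genes as globin rises, and most globin-rich barcodes lie under that line.

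Checked against the label of erythroid cells, the chosen barcodes carried late red-cell RNA, and few UMIs of Gata1, Klf1 or Gfi1b, 3 of the 14 genes of the erythroid transcription factor list. Slc4a1, the band 3 anion exchanger of the membrane, stood at 133 CPM (counts per 1000000 non-globin UMIs, the scale used unless another is named) in the control and 170 in the floxed library, against 1.19 and 1.27 in all other kept barcodes. By contrast, Gata1 gave 1 UMI in 191 control barcodes and none in 454 floxed barcodes, which, at 3 counts of the total, allows a share of up to 0.661% of floxed barcodes with a UMI. Klf1 gave none in the control, which allows up to 1.57%, and 1 in the floxed library, and Gfi1b gave none in either. Epor, the erythropoietin receptor, gave 2 and 7 UMIs, and Kit, a receptor of early progenitors, 3 and 7. Other regulators of that list were found, at levels above or below those of the other kept barcodes. Nfe2, a factor of red cells and platelets, stood at 11.1 and 8.65 CPM against 0.496 and 0.864, and Lmo2 at 55.4 and 45.8 against 41.9 and 28.2. The interval of Lmo2 in the control, 37.4 to 79.1, includes the level of the others. Zbtb7a was lower, at 29.5 and 42.4 against 78.9 and 58.4. Zfpm1 stood at 14.8 and 16.4 against 24.2 and 15.1. Tfrc, the transferrin receptor of cells that make haemoglobin, stood at 51.7 CPM against 18.1 in the control, a ratio of 2.86 (1.90 to 4.14), and at 43.2 against 39.3 in the floxed library, a ratio of 1.10 (0.815 to 1.45). The stage of the barcodes was not settled by these counts, and the set is called globin-rich barcodes throughout. A UMI of Slc4a1 was found in 20.4% of control and 22.7% of floxed globin-rich barcodes, and in 0.633% and 0.599% of the others, which had higher median non-globin depths (6230 and 4923 UMIs).

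The globins were adult. Hbb-bs made up 49.2% of globin UMIs in control and 51.3% in floxed globin-rich barcodes, Hba-a1 and Hba-a2 together 39.7% and 36.9%, and Hbb-bt 11.05% and 11.8%. Of the embryonic chains, Hbb-y gave 7 UMIs, all in the control and all in barcodes under 40% globin, Hba-x gave 0 and 1, and Hbb-bh1 and Hbb-bh2 gave none in either. Hba-a1 and Hba-a2, and Hbb-bs and Hbb-bt, are near-identical copies, so their split rests on how the authors' counting placed shared reads.

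Outside globins, few genes set the globin-rich barcodes apart from other kept barcodes. A gene is called higher or lower here if it reached 25 CPM in the higher set and the interval of its ratio lay wholly beyond 1.5-fold. A gene under 25 CPM in 1 set was thus tested only through the other set, where it was higher. Counts among tested list members and list medians are therefore a description. In the control library 114 of 5757 genes (1.98%) were higher and 38 (0.66%) lower; in the floxed library 132 of 5673 (2.33%) were higher and 49 (0.864%) lower. Ranked by the lower of the ratios in the 2 libraries, the first gene was Trim10, a ubiquitin ligase of late red-cell precursors, at 60.9 CPM against 0.117 in the control and 49.3 against 0.142 in the floxed library. Rhd, a blood group protein, stood at 31.4 against 0.134 and 25.1 against 0.214. Isg20, Rec114, Ube2l6, Fam46c, Slc25a37, Mkrn1, Bpgm, Fech and Tmcc2 were also among the 15 genes highest in both libraries, whose ratios went down to 13.8-fold for Tmcc2 in the floxed library.

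The gene groups fixed for this tissue differed among themselves. Of the late maturation list of 22 genes, which holds genes of organelle clearance and protein turnover, 13 of 17 tested members were higher in each library. Its median log2 ratio was 1.64 in the control and 1.52 in the floxed library, beside -0.13 and -0.15 over all genes tested. Bnip3l, the receptor for clearing mitochondria, stood at 532 and 675 CPM against 263 and 246. Of the 22 genes of the membrane and surface list, 7 and 6 were tested. In each library 5 were higher, among them Epb41, Slc4a1, Rhd and Cd24a. Slc4a1 and Rhd lay under 25 CPM in the other barcodes, so they were tested only through the globin-rich ones. Of heme synthesis genes beyond Alas2, 3 of 7 were higher in the control and 2 of 7 in the floxed library, Urod and Fech in each. Fech, which inserts iron into heme, stood at 358 and 366 CPM against 22.8 and 18.4.

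Iron, redox and oxygen-release genes were among those that were higher. In each library 6 of the tested iron handling genes (of 12 and 11) were higher, among them Slc25a37, which imports iron into mitochondria, at 506 and 422 CPM against 10.8 and 12.3, and the ferritin chains Fth1 and Ftl1. Of 10 redox genes, 4 were higher in the control and 5 in the floxed library, with Gpx1, a peroxide-removing enzyme, at 1752 and 2611 against 230 and 249. Bpgm, whose product lowers the oxygen affinity of haemoglobin, stood at 845 and 546 against 27.6 and 31.5. Of the 14 erythroid transcription factors, 6 and 4 reached the minimum level and were tested. None of these was higher, and Zbtb7a was lower in the control library. Nfe2, at 11.1 and 8.65 CPM, lay under the minimum and was not tested. No tested glycolysis or S phase gene was higher, and of the mitosis list only Ube2c was. Rsad2 and Isg15, both known as interferon-induced genes, were the higher members among 4 tested interferon genes in each library. Rsad2 stood at 528 CPM in both, against 93.6 and 42.2.

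Set against globin, Mkrn1 varied less across globin shares than Actb and Col3a1 did. The groups are cuts of the globin share that chose the barcodes, so non-globin RNA per globin UMI falls across them by construction. Control barcodes held 361938 non-globin and 134145 globin UMIs at 20 to 40%, and 69173 and 172099 at 60 to 80%. The values of all genes here are therefore a description. Mkrn1, a ubiquitin ligase, gave 14.01, 18.4 and 14.9 UMIs per 10000 globin UMIs in control barcodes of 20 to 40%, 40 to 60% and 60 to 80% globin, and 17.4, 14.9 and 16.2 in floxed ones. Alas2, which with globin chose the barcodes, gave 16.03, 17.1 and 16.3 in the control and 19.2, 19.3 and 17.4 in the floxed library, as a description. In the 11 control barcodes of 80% globin and more, Mkrn1 gave 13.2 (10.4 to 16.5) and Alas2 13.9 (10.98 to 17.3). Actb, the cytoskeletal beta-actin, gave 84.1 per 10000 at 20 to 40% and 11.3 at 60 to 80% in the control, and 88.1 and 11.7 in the floxed library. Col3a1, a stromal collagen, went from 20.4 to 1.51 and from 20.9 to 1.54.

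**Figure D2:**
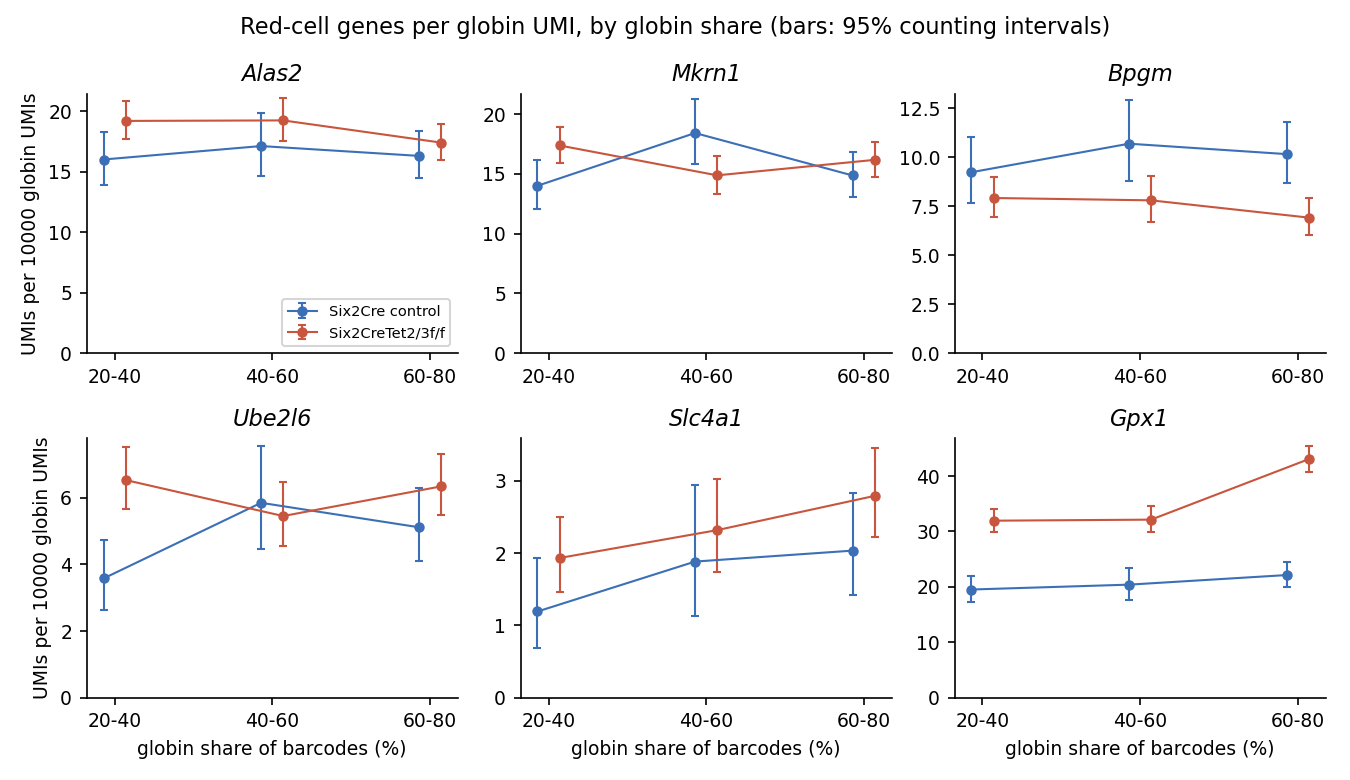
UMIs of 6 red-cell genes per 10000 globin UMIs, in globin-rich barcodes grouped by globin share, with 95% counting intervals. The 11 control barcodes of 80% globin and more are not drawn. Alas2 lies between 16.03 and 19.3 in the groups drawn, while Gpx1 lies higher in the floxed library (red) in each group. The levels of Slc4a1 are higher and those of Bpgm lower in the floxed library in each group. The Slc4a1 intervals overlap in each group, and the Bpgm intervals overlap except at 60 to 80%.

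On the CPM scale, barcodes of 60% globin and more were set against those under 40%. In the control library 114 of 5536 genes (2.06%) were higher and 83 (1.5%) lower, and in the floxed library 144 of 5847 (2.46%) and 128 (2.19%). This comparison divides the barcodes by the globin share that chose them, so it is given as a description. Of the membrane and surface list, 7 of 12 and 9 of 13 tested genes were higher, and of late maturation genes 13 of 17 and 14 of 19. Slc4a1 stood at 457 CPM against 44.2 in the control and at 581 against 74.2 in the floxed library. Of the stroma list none was higher, and 5 of 8 and 5 of 7 were lower, all of them Col1a1, Col1a2, Col3a1, Dcn and Meg3.

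RNA of other kidney cells was found at all globin shares. Marker lists of other cell types gave a median of 0.444% of non-globin UMIs in control barcodes under 40% globin and 0.333% at 60% and more, and 0.427% and 0.302% in the floxed library. In other kept barcodes the medians were 0.424% and 0.407%. Of control barcodes under 40% globin, 48 of 71 (67.6%) held at least 10 UMIs from the marker list of 1 other cell type, as did 117 of 189 (61.9%) in the floxed library. At 60% globin and more it was 1 of 71 and 0 of 125, and among other kept barcodes 72.0% and 66.2%. This count moves with depth, since median non-globin UMIs were 4483 and 4111 under 40% globin, 1080 and 1138 at 60% and more, and 6230 and 4923 in the others. The stroma list had the highest summed level of the 13 lists in control globin-rich barcodes, at 2579 CPM, and 1950 in the floxed ones, against 1638 and 1459 in other kept barcodes. The list of mast cells and basophils was at 0 in control globin-rich barcodes and gave 1 UMI in floxed ones, while the other 12 lists gave UMIs in both. No doublet caller was run, so whether these barcodes hold a red cell with a second cell, or free globin RNA with a kidney cell, was not tested.

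**Figure D3:**
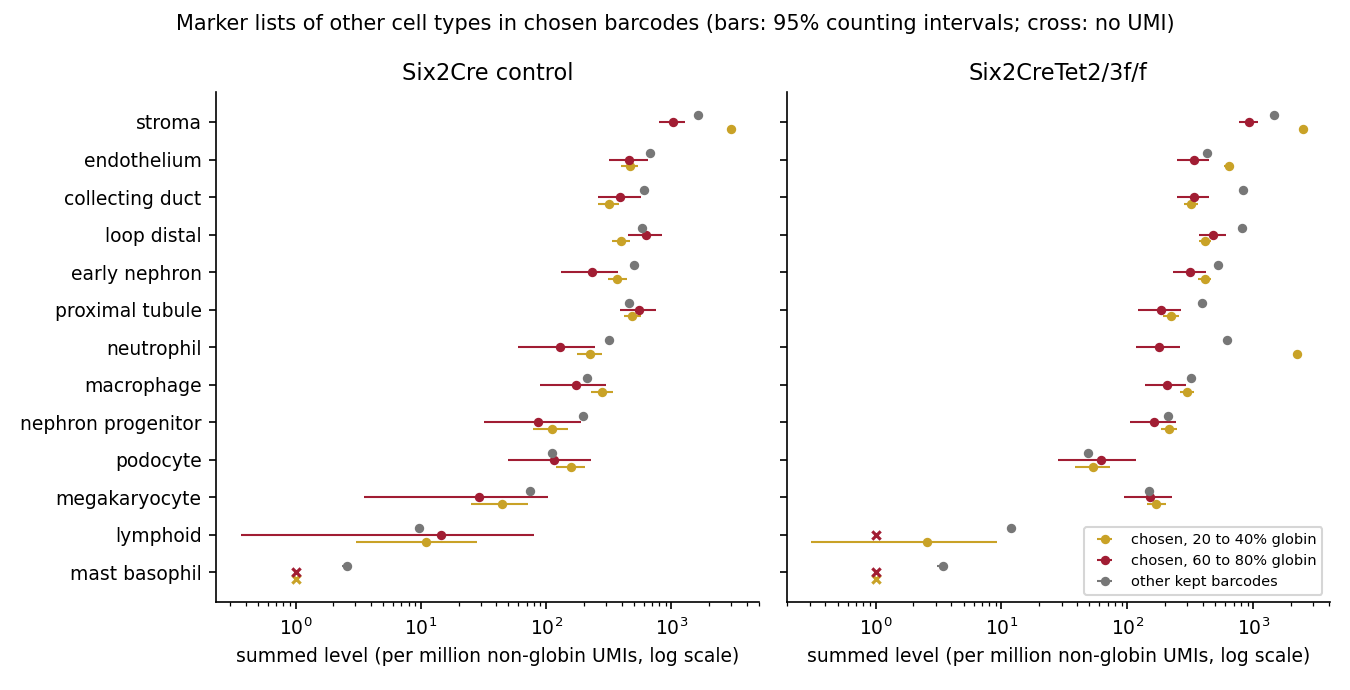
Summed level of 13 marker lists in CPM (log scale) in globin-rich barcodes of 20 to 40% and of 60 to 80% globin and in other kept barcodes, with 95% counting intervals; crosses mark no UMI. The stroma list is at 3003 and 2463 CPM at 20 to 40% globin and at 1026 and 923 at 60 to 80%, and the neutrophil list is at 2229 at 20 to 40% in the floxed library.

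Globin-rich barcodes varied in the balance of the adult beta chains. Hbb-bt made up a median of 18.2% of Hbb-bs and Hbb-bt UMIs per barcode in the control (quartiles 12.9 and 21.0) and 18.7% in the floxed library (14.4 and 21.5). The range was wide, from 1.22% to 32.9% and from 0.717% to 28.2%. Below 10% lay 35 of 191 control barcodes (18.3%, 13.1 to 24.6) and 60 of 454 floxed barcodes (13.2%, 10.2 to 16.7), while 131 and 327 lay at 15% and more. The same tail was present in globin-rich barcodes that failed the cell filter, 76 of 280 (27.1%) and 350 of 1325 (26.4%) of those with at least 100 beta-chain UMIs. In other kept barcodes with as many beta-chain UMIs (235 and 514), the median was lower, at 6.47% and 7.06%.

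**Figure D4:**
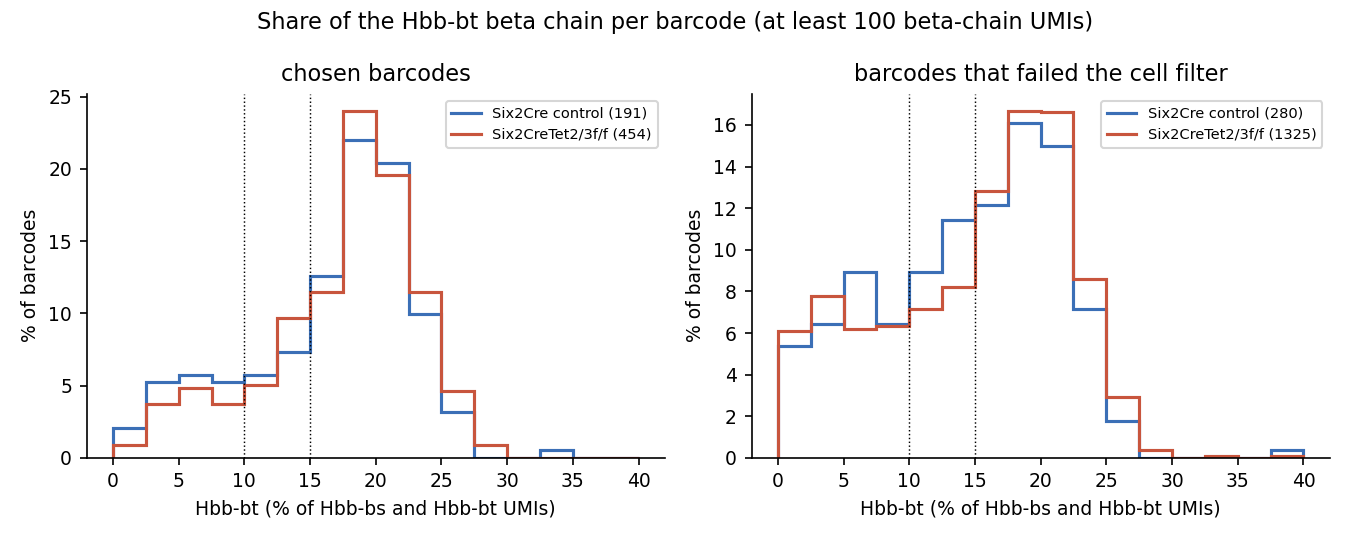
Distribution of the Hbb-bt share of beta-chain UMIs per barcode, as percent of barcodes in steps of 2.5 points, for chosen barcodes and for those that failed the cell filter; dotted lines mark 10% and 15%. Chosen barcodes have medians of 18.2% and 18.7%, and 18.3% and 13.2% of them lie below 10%.

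Barcodes with a low Hbb-bt share held less RNA of several late red-cell genes per globin UMI, Slc4a1, Gpx1 and Bpgm among them. The division at under 10% and at 15% and more was chosen after its values were seen. In control globin-rich barcodes, Slc4a1 gave 0 UMIs in the low group and 62 in the high group, or 1.67 per 10000 globin UMIs, at least 2.66-fold higher against a floor of 3 counts over the low group. In the floxed library it gave 2 and 168 UMIs, 0.305 against 2.52 per 10000 globin UMIs, a ratio of 8.25 (2.25 to 68.7). Among barcodes that failed the filter, Slc4a1 gave 0 and 35 UMIs in the control and 0 and 273 in the floxed library, at least 2.86 and 19.2-fold higher in the high group. So the low group held at most 2 Slc4a1 UMIs in each of these 4 sets of barcodes.

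Gpx1 followed the same division with many more counts. Per 10000 globin UMIs it gave 6.05 in the low and 23.1 in the high group of control globin-rich barcodes, a ratio of 3.81 (2.63 to 5.73), and 7.78 and 39.8 in the floxed ones, a ratio of 5.11 (3.88 to 6.89). In barcodes that failed the filter the ratios were 18.7 (9.45 to 43.6) and 15.6 (12.1 to 20.5). Bpgm differed 3.41-fold (2.07 to 6.01) and 2.79-fold (1.77 to 4.68), and Blvrb, biliverdin reductase B, 3.22-fold (1.60 to 7.56) and 3.24-fold (2.10 to 5.26). Rsad2 differed 2.19-fold (1.30 to 3.97) and 5.40-fold (2.92 to 11.3).

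Other red-cell genes showed smaller ratios per globin UMI. Fech had ratios of 1.07 (0.664 to 1.83) and 0.936 (0.663 to 1.36). Fth1 had 1.02 (0.871 to 1.21) and 0.883 (0.785 to 0.997), and Ftl1 was lower in the high group in both, at 0.677 (0.605 to 0.759) and 0.645 (0.590 to 0.707). Alas2 had 0.936 (0.742 to 1.19) and 0.903 (0.755 to 1.09), a value that the requirement of 1 Alas2 UMI bears on. The scale matters for these genes. On the CPM scale the ratios were higher: 1.84 and 1.20 for Fech, 1.76 and 1.13 for Fth1, and 1.61 and 1.15 for Alas2. Ftl1 was at 1.16 in the control and 0.826 in the floxed library, so its direction in the control flips with the scale.

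Over all genes, on the scale of non-globin UMIs, 37 of 6058 (0.611%) were higher and 79 (1.3%) lower in the high than in the low group of control globin-rich barcodes. In the floxed library 36 of 6188 (0.582%) were higher and 59 (0.953%) lower. Of the membrane and surface list, 3 genes were higher in each library, of 10 and 7 tested, Slc4a1 and Cd24a among them. Of the redox list 3 and 2 of 10 were higher, Gpx1 and Blvrb in each. Of the late maturation list 5 of 18 and 3 of 17 were higher, with Fam46c in each, and no member of these 3 lists was lower. The floxed barcodes that failed the filter were the set with the most barcodes. In them 9 of 11 membrane, 11 of 17 late maturation and 5 of 10 redox genes were higher. Over all genes there, 124 of 4723 (2.63%) were higher and 15 (0.318%) lower. In the control barcodes that failed the filter, 4 of 8, 7 of 17 and 5 of 10 genes of these lists were higher. Over all genes in those, 49 of 5146 (0.952%) were higher and 16 (0.311%) lower.

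The low group also had less globin and less depth. Its median globin share was 32.2% against 58.6% in the control and 36.3% against 49.7% in the floxed library, and its median UMIs were 3094 against 5044 and 2688 against 4140. Median mitochondrial shares were 6.22% against 3.98% and 6.21% against 4.87%. When globin-rich barcodes of at least 40% globin were taken alone (14 low and 90 high in the control, 25 and 201 in the floxed library), Slc4a1, Cd24a, Gpx1, Blvrb, Bpgm and Fam46c met the size rule in the high group of both libraries, where 20 of 5969 genes (0.335%) and 21 of 6713 (0.313%) were higher in all, and 21 (0.352%) and 40 (0.596%) lower. Marker lists of other cells gave 0.716% of non-globin UMIs in the low and 0.524% in the high group of the control, and 0.847% and 0.652% in the floxed library. Their part in the division was not tested.

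**Figure D5:**
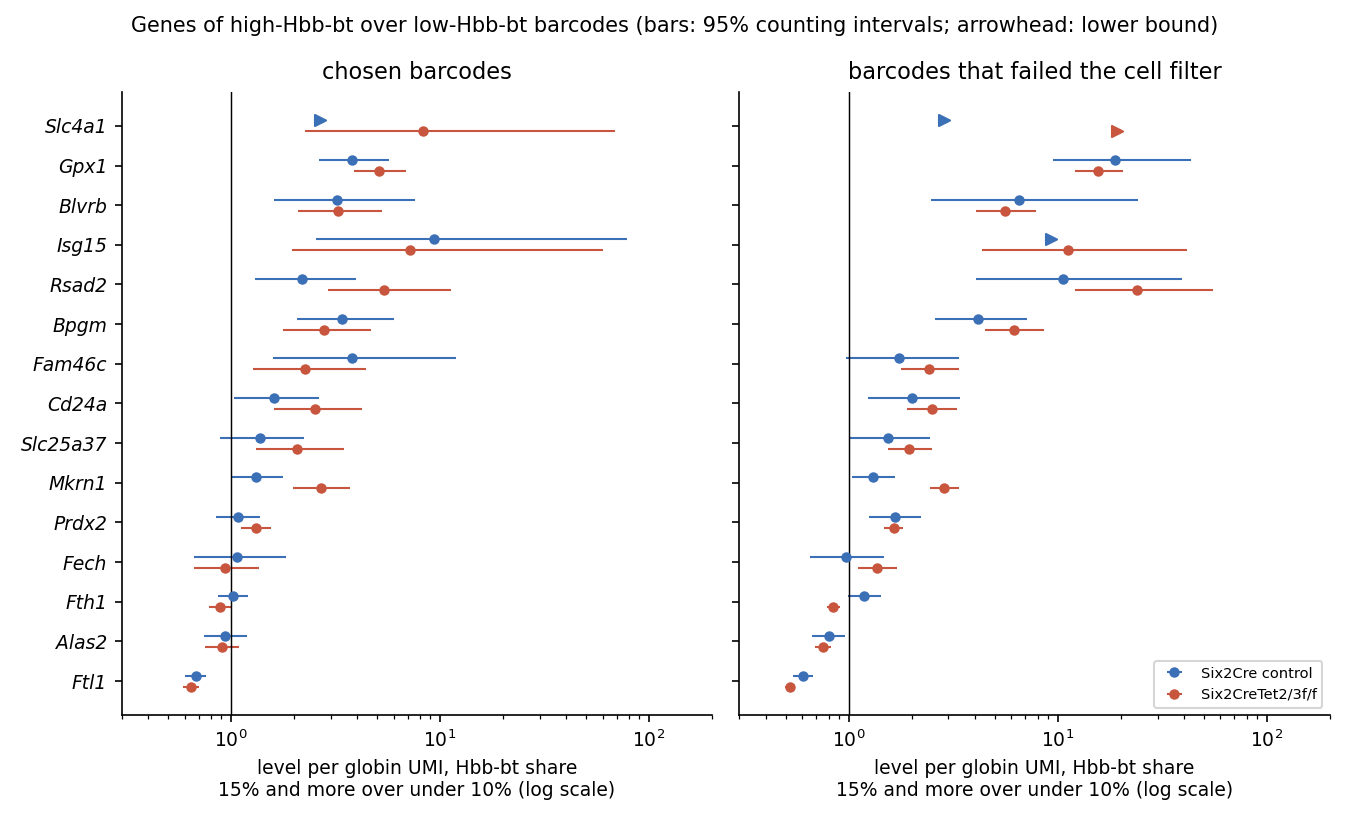
Ratio of the level per globin UMI in barcodes with an Hbb-bt share of 15% and more over those under 10% (log scale), with 95% counting intervals; arrowheads are lower bounds where the low group had no UMI. Slc4a1, Gpx1 and Blvrb lie right of 1 in both libraries and both sets, while Fech, Fth1 and Alas2 lie between 0.751 and 1.37 and Ftl1 between 0.521 and 0.677.

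Between the libraries, globin-rich barcodes differed in fewer genes than other kept barcodes did. Of 5628 genes, 50 (0.888%) were higher and 63 (1.12%) lower in the floxed library, against 120 (2.09%) and 110 (1.91%) of 5748 in the other barcodes, where summed counts were far larger. On the scale of all UMIs, globins included, the split in globin-rich barcodes was 52 higher and 30 lower. Of the red-cell lists, no heme synthesis, iron handling, late maturation or redox gene met the size rule (0 of 7, 12, 16 and 10). The median log2 ratios of these lists were 0.05, -0.15, -0.01 and 0.11, beside -0.01 over all genes tested. Aqp1, a water channel of red cells and proximal tubule, was lower in the floxed barcodes at 6.05 CPM against 31.4, and Sox6, a regulator of globin switching, at 7.78 against 31.4. Sox6 rested on 17 control and 9 floxed UMIs. In barcodes that failed the filter Sox6 stood at 17.5 CPM in the control and 19.2 in the floxed library. In the other kept barcodes it was higher in the floxed library, at 17.7 against 13.3.

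Several red-cell genes outside the size rule still differed between the libraries beyond counting error on at least 1 scale. Gpx1 stood at 1752 CPM in control and 2611 in floxed globin-rich barcodes, a ratio of 1.49 (1.39 to 1.60). Per globin UMI the ratio was 1.76 (1.64 to 1.90). It was 2.05 (1.84 to 2.28) at 60% globin and more and 1.99 (1.84 to 2.16) in barcodes that failed the filter. These 3 measures divide by globin, which chose the barcodes and was scarcer in the floxed library. Globin made up 46.1% of control and 42.0% of floxed UMIs in globin-rich barcodes. The shares were 73.9% and 67.6% at 60% and more, and 70.1% and 67.5% in failed barcodes. Each ratio per globin UMI is thus higher than the CPM ratio of the same set. Prdx2, a peroxide-removing enzyme of red cells, had 1.80 (1.66 to 1.95), 1.96 (1.70 to 2.25) and 2.09 (1.91 to 2.30) on the same 3 measures, and Blvrb 2.05 (1.76 to 2.39), 2.29 (1.83 to 2.90) and 2.67 (2.21 to 3.26). Slc4a1 had 1.52 (1.15 to 2.01), 1.73 (1.16 to 2.61) and 2.30 (1.63 to 3.34) on them, while its CPM ratio in globin-rich barcodes was 1.28 (0.974 to 1.70). Bpgm went the other way, at 546 CPM in floxed and 845 in control globin-rich barcodes, a ratio of 0.645 (0.571 to 0.730). At 60% globin and more its CPM ratio was 0.517 (0.427 to 0.627), which met the size rule. Per globin UMI its ratios on the 3 measures were 0.763 (0.675 to 0.863), 0.702 (0.579 to 0.851) and 0.991 (0.882 to 1.12). Car2, a carbonic anhydrase of red cells, had a CPM ratio of 1.51 (1.19 to 1.94), and of 2.89 (1.91 to 4.54) at 60% globin and more, which met the size rule too. Mkrn1 had 1.07 (0.976 to 1.17) and Slc25a37 0.986 (0.849 to 1.15) per globin UMI in globin-rich barcodes, and 0.905 and 0.834 on the CPM scale, so the direction of Mkrn1 flips with the scale. Tspo2, a translocator protein of red-cell precursors, met the size rule and is named here after its values were seen. It was lower in the floxed barcodes, at 20.8 against 75.7 CPM (24 and 41 UMIs), a ratio of 0.274 (0.159 to 0.465). In the other kept barcodes Tspo2 was lower as well, with 17 floxed and 86 control UMIs, a ratio of 0.360 (0.201 to 0.611). Isg15 was lower in the floxed barcodes too, at 143 against 290 CPM, as it was in the other kept barcodes, at 6.10 against 35.0. Of 4 tested interferon genes 3 were lower, Isg15, Bst2 and Ifitm3, beside 1.12% of all genes tested. The median log2 ratio of that list was -0.94. Ifitm3 had a ratio of 0.550 in globin-rich and 0.542 in other kept barcodes.

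Globin, mitochondrial, ribosomal protein, predicted and sex-linked genes were left out before the genes with the largest differences were ranked. Some of those left out met the size rule, such as mt-Nd3 at a ratio of 0.351 and Gm8797 at 8.09. In the other kept barcodes their ratios were 0.357 and 5.31. Most of the ranked genes with the largest differences were not red-cell genes. Ngp, Camp, Ltf, Retnlg, Pglyrp1 and Stfa3, genes of neutrophil granules or neutrophils, were among the 10 highest in the floxed library. Ngp had 1 UMI in control and 171 in floxed barcodes, 162 of them in 1 barcode, and Camp had 1 and 144, 141 of them in 1 barcode. All 6 genes of the neutrophil list were higher, with a summed level of 2168 CPM against 186. Without the 8 floxed and 1 control barcodes that held at least 10 UMIs of that list, its level was 90.6 and 68.5. Among other kept barcodes it was 622 and 317. Ltf, Pglyrp1, Rbm46 and Tpm3-rs7 had no UMI in the control barcodes and were at least 5.62, 5.78, 4.69 and 12.0-fold higher in the floxed ones, against a floor of 3 counts over the control set. Tpm3-rs7, a copy of a tropomyosin gene whose reads may be shared with Tpm3, was spread over 65 barcodes, and was 26.2-fold higher in the other floxed barcodes. Wfdc17 and Dlk1 had 1 UMI each in the control barcodes and 42 and 35 in the floxed ones, 27 of the latter in 1 barcode.

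The genes lowest in the floxed library included genes of the proximal tubule. Slc22a6, an organic anion transporter, had 14 and 0 UMIs, at least 9.96-fold lower, and Miox, Kap and Slc27a2 had 16 and 4, 18 and 5, and 14 and 3. Kap went the other way in the other kept barcodes, at 2.47-fold higher in the floxed library. Ren1, the renin gene, had 82 UMIs in 38 control barcodes, 40 of them in 1, and 18 UMIs in 17 floxed barcodes, 9.72-fold lower (5.79 to 17.2), and was 3.66-fold lower in the other kept barcodes. Serpina6 had 45 UMIs, all in 1 control barcode, and none in the floxed set. Apom, Ppp1r14a, Rnaset2b and Stmn2 completed the 10, and Rnaset2b may share reads with its near-identical copy. Of the proximal tubule list 4 of 7 tested genes were lower, Spp2, Kap and Ass1 among them, and its summed level was 589 CPM in control and 253 in floxed globin-rich barcodes, against 459 and 391 in the others. The part of free or co-captured RNA of those cells in these differences was not tested. In barcodes of 60% globin and more, 11 genes (0.213%) were higher and 26 (0.504%) lower.

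A difference in the targeted genes was not detectable in these barcodes at this depth. Tet2 had 14 UMIs in control and 37 in floxed globin-rich barcodes, 25.8 and 32.0 CPM, a ratio of 1.24 (0.654 to 2.48). Tet3 had 29 and 54 UMIs, 53.5 and 46.7 CPM, a ratio of 0.872 (0.546 to 1.42), whereas in other kept barcodes its ratio was 0.613 (0.593 to 0.634). Tet1, which was not targeted, had 8 and 30 UMIs. Counting at the 3′ end cannot show whether the floxed exons were removed.

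Barcodes with at least 3 UMIs of the mitosis list, after thinning to 1000 non-globin UMIs, were 36 of 161 (22.4%) in the control and 56 of 409 (13.7%) in the floxed library, leaving out 30 and 45 shallower ones. The difference, floxed minus control, was -8.67 percentage points (-16.3 to -1.85). Unthinned shares were 40.8% and 28.2%. Among other kept barcodes the thinned shares were 18.8% and 13.3%. At 60% globin and more they were 33.3% of 45 control and 24.0% of 96 floxed barcodes. Ube2c is a ubiquitin-conjugating enzyme that is also known in late red-cell precursors. It gave 19.4% and 21.4% of the list's UMIs in globin-rich barcodes and 8.01% and 7.91% in the others. At 60% globin and more it gave 35.1% and 38.2%. Mki67 stood at 149.5 and 102.0 CPM against 165 and 137. Whether these shares stand for dividing cells was not tested. The interval of the difference included 0 at other globin thresholds and under a stricter cell filter.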

How the data were processed

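Single-cell RNA was captured with droplets in 1 library per genotype. The authors deposited matrices of whole-number UMI counts per gene and barcode, not normalized, made with Cell Ranger (6.0.2 per the submitters' processing notes, 6.0.1 per the file headers) on mm10. Counts of chosen barcodes were summed per library and given as CPM (counts per 1000000 non-globin UMIs) or per 10000 globin UMIs. Intervals of 95% are exact Poisson for levels, exact conditional binomial for ratios of 2 levels, Clopper-Pearson for shares, and Newcombe's for the difference of 2 shares, and all cover counting error only. Where a set had no UMI, a floor of 3 counts over that set bounds the fold, and 3 of the set's barcodes bound a share of 0. A gene was called at 25 CPM or more in the higher set with an interval wholly beyond 1.5-fold, leaving out globins and Alas2.

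Barcodes were not treated as replicates, and no doublet caller was run. Named genes are the members of fixed lists, the 10 highest and 10 lowest called genes between libraries (globin, mitochondrial, ribosomal protein, predicted and sex-linked genes left out), the 15 genes highest over other barcodes, and Tet1, Tet2 and Tet3, of which a few are not reported here. The barcodes and lists were chosen with earlier results of these data known, and the division by Hbb-bt share after its values were seen. Promoters matched 8 of the 15 genes highest over other barcodes. The method was run on simulated Poisson counts, the model its intervals assume, without the gathering of counts in single barcodes seen here. That run therefore cannot show how well the intervals cover the real counts. Sums and tables were made with pandas 2.3.3 and numpy 2.4.6 under Python 3.11.15, intervals with scipy 1.17.1 and figures with matplotlib 3.10.9. Alternatives covered the globin threshold, the Alas2 requirement, the cell filter, other-cell RNA, the scale, the level minimum and the weight of barcodes.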

Additional observations from a re-analysis of the deposited data

How the results depend on the processing

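The floxed over control ratio of globin-rich barcodes per kept barcode, 3.22, lay between 2.99 and 3.57 under the alternatives run, except at 60% globin and more, where it was 2.38. The 50 genes higher in the floxed library became 23 without the 25% of barcodes richest in other cells' markers, 11 at 60% globin and more, 30 without barcodes with 10 or more UMIs of another type's list, 20 at a minimum of 100 CPM, 113 with barcodes weighted equally and 96 with bins of globin share weighted equally. The 63 lower genes became 26 at 60% globin and more, 30 on the scale of all UMIs, 19 at the minimum of 100 CPM and 109 with bins weighted equally. Only 3 bins could be used, since no floxed barcode reached 80%. The 2 settings at 60% globin and without barcodes of 10 or more marker UMIs were chosen after seeing the data. The difference in mitosis shares stayed negative, from -15.0 to -3.17 points. For 17 of the named genes, 194 ratios were recomputed over 13 alternatives: 134 kept direction and call, 48 lost the call, 2 moved and 10 reversed. Most members of the fixed lists were not part of this check. The reversed log2 ratios were, for Camp, -0.058 at 40% globin and more, -0.16 without that 25% and -0.32 without the 10-UMI barcodes. For Dlk1 it was -1.06 at 40%. For Stmn2 they were 0.53 at 40%, 0.15 at 60% and 0.68 without the 10-UMI barcodes, and for Stfa3 -0.57 without that 25%, -0.85 at 60% and -0.73 without the 10-UMI barcodes. The cause was not tested. No paired analysis was possible because each genotype has 1 library. Depth limits the low-count genes: 14 to 54 UMIs of Tet2 or Tet3 leave ratios from 0.546 to 2.48 within the intervals.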
